A study of Mus musculus with 10 samples.

Results

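Proteoglycans and hyaluronan synthases of the extracellular matrix were followed in adipocyte precursors (APs) cultured with or without the type 2 cytokine IL-4. The 10 genes were chosen by symbol, with earlier results of these data known. They were the small leucine-rich proteoglycans Dcn, Lum, Bgn, Fmod and Ogn, and the large hyaluronan-binding proteoglycans Vcan and Acan. The others were the hyaluronan synthases Has1 and Has2 and the lubricating proteoglycan Prg4. Of the 10, 9 had reads among the 18384 genes listed in any library. All 9 were among the 14009 genes that passed the filter on low counts. Acan had no read in any library. Both groups came from subcutaneous white fat of C57BL/6J mice, from which CD45- and CD31-bearing cells had been depleted before selection for SCA-1. Cells grew in DMEM F12 with fetal bovine serum. The IL-4 group received the cytokine from the day after seeding, for 4 days by the study's usual schedule, and the control group did not. Poly-A RNA was sequenced from 3 control libraries (replicates 1 to 3) and 3 IL-4 libraries (replicates 4 to 6), which the design text calls biological replicates. Ages, the number of animals behind each library and the IL-4 dose were not given in the sources used here. These are primary cells kept in serum on plastic, a limit of the model that both groups share.

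Small leucine-rich proteoglycans are secreted proteins with a core of leucine-rich repeats, most of which bind collagen fibrils and carry chondroitin, dermatan or keratan sulfate chains. Hyaluronan is a long sugar chain without a protein core, spun out through the plasma membrane by hyaluronan synthases, and versican and aggrecan bind it through their link domains. In fat, fibroblast-like precursors are a main source of this matrix, which surrounds adipocytes and vessels.

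Total expected counts per library ran from 28526782 to 29057787, so depth was nearly even. Composition was less even, as the 10 most abundant genes held 9.14% to 9.59% of counts in controls and 13.8% to 15.5% with IL-4. IL-4 replicate 6 stood apart from the other IL-4 libraries: its 1493 genes with transcripts of 6000 bases or more had a median level 0.759 times that of IL-4 replicates 4 and 5, and its 4094 genes under 2000 bases a median of 1.19 times. Control replicate 3 leaned the same way, at 0.879 times for the long genes. Thy1 (340 to 396 FPKM per library) and Itgb1 (320 to 398) were the highest of the 9 precursor markers and weighed most in their sum. The 9 precursor markers summed to between 1101 and 1147 FPKM in controls and to between 1139 and 1210 with IL-4. Of these, 4 rose (Pi16 16.3-fold, Cd34 10.2-fold, Ly6a, which encodes SCA-1, 2.29-fold and Pdgfra 1.46-fold), Pdgfrb fell, and Thy1, Itgb1 and the low Dpp4 and Cd24a did not pass the test. Markers of macrophages were present too, although CD45-bearing cells had been depleted. The 14 macrophage markers summed to between 3968 and 5146 FPKM (fragments per kilobase of transcript, scaled to the mapped total) in the control libraries and to between 1570 and 2095 in the IL-4 libraries, and 12 of the 14 fell (9 to 12 with any 1 library left out), among them Ptprc, which encodes CD45, while Mrc1 rose. The 5 contractile myofibroblast markers summed to between 1327 and 1419 FPKM in controls and to between 421.8 and 507.5 with IL-4, and 4 of them fell (Acta2, Tagln, Cnn1 and Myh11) while Myocd rose. The 7 endothelial markers were low, at sums of 15.4 to 16.4 FPKM in controls and 21.7 to 28.3 with IL-4; Flt1 (6.33-fold) and Tek rose, Cdh5 and Emcn fell, and 3 did not pass. Of 7 mesothelial markers, Msln, Upk3b, Lrrn4 and Upk1b were at or near 0, whereas Krt19 (log2 fold change 0.76) and Wt1 (2.23) rose and Bnc1 (-2.03) fell, the list summing to between 6.74 and 7.8 FPKM in controls and between 9.88 and 11.5 with IL-4. Lymphocyte and mature adipocyte markers were at or near 0 (sums of at most 0.41 FPKM). In such bulk samples, fewer cells of a type and less RNA per cell cannot be told apart, and the part of these other cell types in the results was not tested.

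The RefSeq promoter table of GRCm38.p6 held 6 of the 10 members (Fmod, Ogn, Bgn, Vcan, Has1 and Acan). Stretches of 3 of them are shown, Fmod and Ogn as leucine-rich genes that fell and rose, and Bgn as the one member with a match to a searched motif. IL-4 acts through the transcription factor STAT6, which is known to prefer the palindrome TTCNNNNGAA, whereas other STAT factors prefer TTCNNNGAA. Both motifs read the same on either strand and cannot begin at the same base. The first 2 lines give the 30 bases that precede the annotated start, and the third the stretch around the Bgn match, which is in capitals. All 3 are on the plus strand.
Fmod, chr1:134037224-134037253: agagactgcagaaataacttctggggcatc
Ogn, chr13:49607985-49608014: tttaaactgttgggccctgaaactttattc
Bgn, chrX:73483442-73483471: agaaaattgcTTCCTTTGAAgctgccaggg

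In the 250 bases before the start, TTCNNNNGAA occurred in Bgn alone of the 6, beginning 149 bases before the start, and TTCNNNGAA in none. Of all 32851 promoters in the table, 5.85% held the first motif and 7.02% the second in the same window. A match is a description of the letters only. Bgn, the member with the match, did not pass the test for a change with IL-4. Dcn, Lum, Has2 and Prg4, which did pass, were missing from the promoter table and could not be searched. The search therefore says nothing about them.

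The levels of the members spanned more than 3 orders of magnitude. Biglycan (Bgn) was the most abundant, with FPKM of 2503, 2421 and 2541 in control replicates 1 to 3, and its mean of 2488 ± 60.9 (SD, n = 3) ranked 8 among all listed genes. Decorin (Dcn) followed at 245 ± 11.5 FPKM, then Ogn at 66.7 ± 3.88, Fmod at 54.8 ± 2.51, Vcan at 43.9 ± 4.51 and Lum at 23.6 ± 2.32 (SD, n = 3 control libraries each). The remaining members were low, with Has2 at 4.66 ± 0.0603 FPKM, Prg4 at 1.31 ± 0.276 and Has1 at 0.56 ± 0.114. In controls no neighbours in this order had overlapping ranges, although Ogn was only 1.22 times Fmod and Fmod 1.25 times Vcan.

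With IL-4 the order changed at 2 places. Fmod dropped from the fourth place to below Vcan, with 15.7 ± 0.694 against 36.3 ± 5.48 FPKM, and its range then overlapped that of Lum (13.7 ± 1.45), so that these neighbours did not differ beyond their spread. Prg4, at 1.96 ± 0.25 FPKM, passed Has2, at 1.38 ± 0.0473 (SD, n = 3 IL-4 libraries each). Bgn and Dcn stayed first and second, but the gap between them narrowed from 10.2 times to 5.89 times. FPKM is scaled by library total, and on that scale the median gene was lower with IL-4 by 0.17 on the log2 scale, so group differences were tested on counts with a scaling that centres the genes (TMM).

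**Figure D1:**
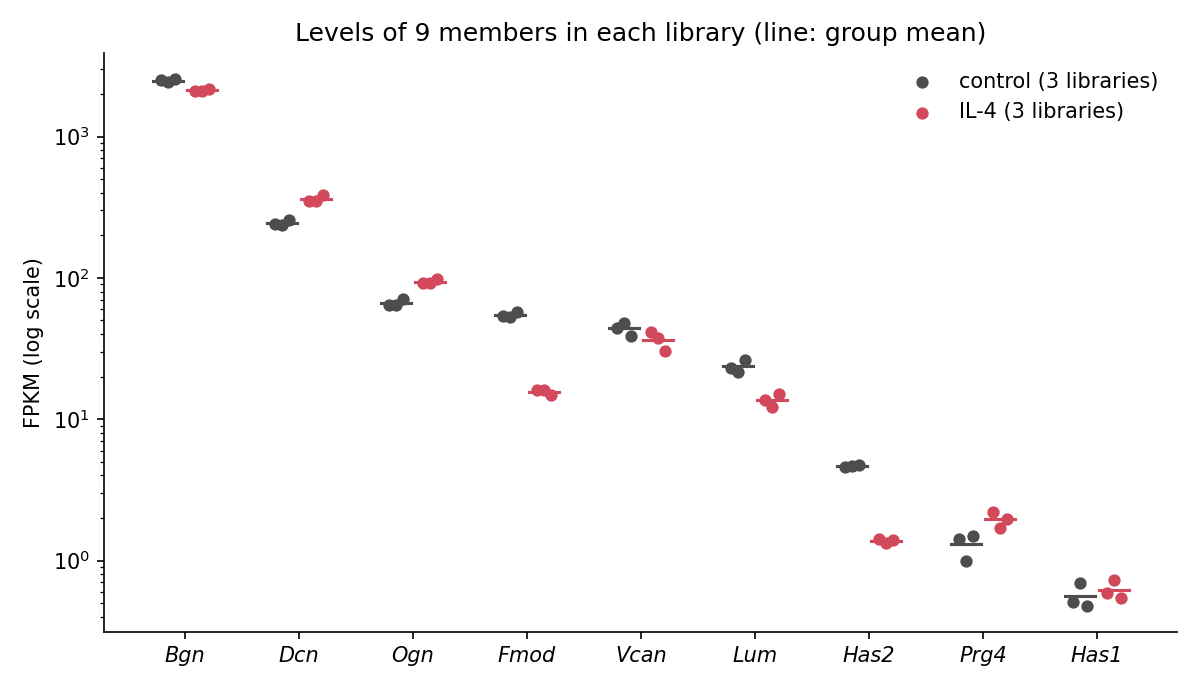
FPKM of 9 members (log axis) in each of 3 control and 3 IL-4 libraries; points are libraries and short lines group means. Fmod and Has2 lie well below their control points with IL-4, Dcn, Ogn and Prg4 lie above theirs, and Bgn leads in both groups (means 2488 and 2130 FPKM).

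Of the 9 members with reads, 6 passed the test (edgeR quasi-likelihood, Benjamini-Hochberg adjusted p under 0.05), in both directions. Fmod, Has2 and Lum fell, and Dcn, Ogn and Prg4 rose, so 3 of 9 (33.3%) were lower and 3 of 9 higher. Over all 14009 genes tested, 18.4% were lower and 19.0% higher. With 9 members, chosen with earlier results of these data known, this difference in share was not tested. Beyond 2-fold, 2 members were lower (Fmod and Has2), beside 5.26% of all genes, and none was higher, beside 5.77% of all genes. The largest rise in any of the 14 settings was 0.95 on the log2 scale, for Prg4 by edgeR without IL-4 replicate 5 (DESeq2 gave 0.84). Bgn, Vcan and Has1 did not pass. The values of each follow, as normalized counts.

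**Figure D2:**
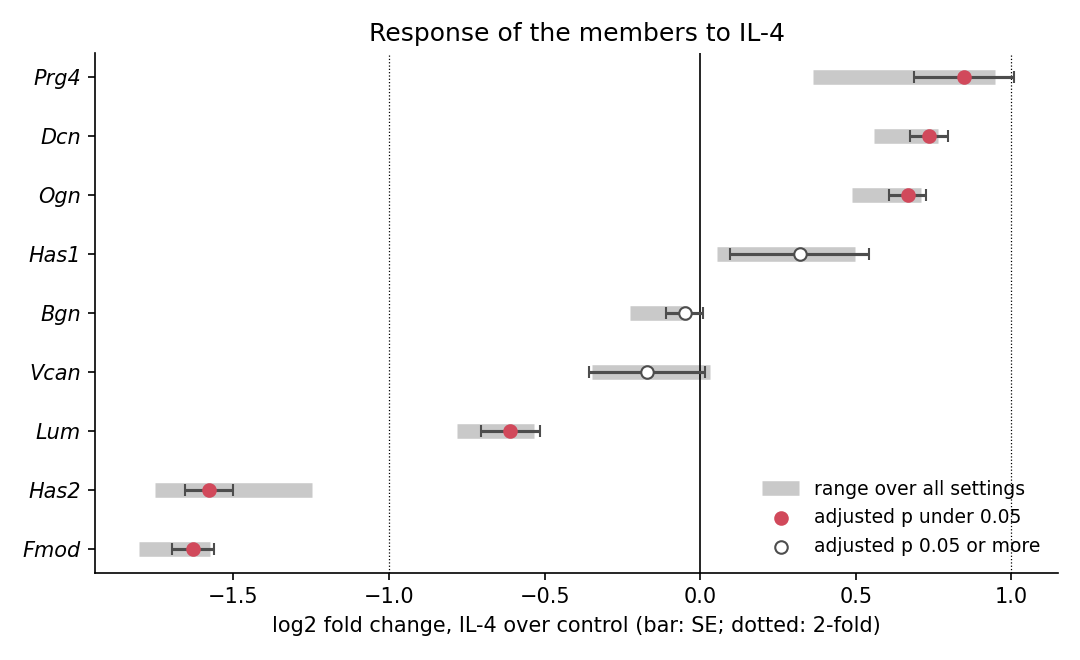
Log2 fold change of 9 members, IL-4 over control, from edgeR, with SE as the thin bar; filled points passed the test and grey bands span all 14 settings of scaling, filter, unit and left-out library. The 6 members that passed keep clear of 0 in every setting, while the band of Vcan crosses it. Bgn (-0.22 to -0.039) and Has1 (0.055 to 0.50), which did not pass, also keep clear of 0.

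Fibromodulin (Fmod, Entrez Gene 14264, chromosome 1, 134037254 to 134048280) carries keratan sulfate and regulates the assembly of collagen fibrils. Control libraries had 4072, 4059 and 4334 normalized counts, and IL-4 libraries 1383, 1396 and 1249. Every IL-4 library lay far below every control library, a change matched in size only by Has2 among the members. The fall was 3.09-fold (log2 fold change -1.63, SE 0.07, adjusted p = 1.13e-06 by edgeR).

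Lumican (Lum, Entrez Gene 17022, chromosome 10, 97565501 to 97572703) is the closest relative of fibromodulin and binds the same region of collagen. Its normalized counts of 1252, 1194 and 1416 in control went to 849, 763 and 917 with IL-4. The groups did not overlap, as in 25.3% of all genes in this direction. The fall of 1.53-fold was smaller than that of Fmod (log2 fold change -0.61, SE 0.09, adjusted p = 0.00134 by edgeR).

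Decorin (Dcn, Entrez Gene 13179, chromosome 10, 97479500 to 97518163) carries a single chondroitin or dermatan sulfate chain, binds collagen and sequesters TGF-β. The gene had 11916, 11884 and 12710 normalized counts in control and 19859, 19749 and 21131 with IL-4. All IL-4 libraries lay well above all controls, as in 25.2% of all genes for the upward direction. Dcn rose 1.66-fold (log2 fold change 0.73, SE 0.06, adjusted p = 4.69e-05 by edgeR).

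Osteoglycin, or mimecan (Ogn, Entrez Gene 18295, chromosome 13, 49608015 to 49624501), moved much as Dcn did. Its normalized counts were 4328, 4368 and 4736 in control and 6986, 7048 and 7294 with IL-4, with no overlap. The rise was 1.59-fold (log2 fold change 0.67, SE 0.06, adjusted p = 6.97e-05 by edgeR). Ogn lies inside the span of Cenpp on the opposite strand, a gene with 93 to 136 expected counts per library.

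Biglycan (Bgn, Entrez Gene 12111, chromosome X, 73483601 to 73495936), the paralogue of decorin with chondroitin or dermatan sulfate chains, was far above the rest in both groups. Its normalized counts were 160226, 156271 and 161093 in control and 153164, 154128 and 153901 with IL-4. The IL-4 libraries were all slightly below the controls, but by only 1.04-fold, and the gene did not pass the test (log2 fold change -0.05, SE 0.06, adjusted p = 0.552 by edgeR). Scaling by library totals alone gave a log2 fold change of -0.22 with adjusted p = 0.022 by edgeR, under which the median of all genes was -0.17.

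Because these 5 genes belong to one family, the share of each in the summed FPKM of the 5 was taken in each library. Other genes of the family, such as Aspn, Podn and Prelp, were not in the sum. Bgn made up 86.5% ± 0.4 in control and 81.5% ± 0.482 with IL-4, and Dcn 8.51% ± 0.214 and 13.8% ± 0.427 (SD, n = 3 in each group). The share of Ogn went from 2.32% ± 0.0883 to 3.59% ± 0.0567. That of Fmod went from 1.9% ± 0.0462 to 0.601% ± 0.04, and that of Lum from 0.82% ± 0.0592 to 0.524% ± 0.0454. These shares do not depend on how libraries were scaled, though they add up to a fixed total, so a rise of one lowers the others.

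Ratios between pairs of members within a library also need no scaling. The ratio of Lum to Dcn was 0.0957, 0.0916 and 0.101 in control and 0.0389, 0.0352 and 0.0395 with IL-4, a 2.54-fold drop. The ratio of Bgn to Dcn went from between 9.84 and 10.4 to between 5.66 and 6.06, a 1.72-fold drop. That of Fmod to Lum went from between 2.2 and 2.44 to between 0.98 and 1.31, a 2.03-fold drop. The ratio of Ogn to Dcn hardly moved, from between 0.268 and 0.276 to between 0.255 and 0.264. In contrast, Has1 to Has2 rose from between 0.102 and 0.148 to between 0.386 and 0.549, or 3.75-fold. The groups did not overlap for any of the 5 ratios, each with p = 0.1 by an exact two-sided permutation test, the smallest that 3 against 3 libraries can give, and 0.1 after adjustment over the 5. A sixth ratio, Acan to Vcan, could not be taken, as Acan had no reads.

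**Figure D3:**
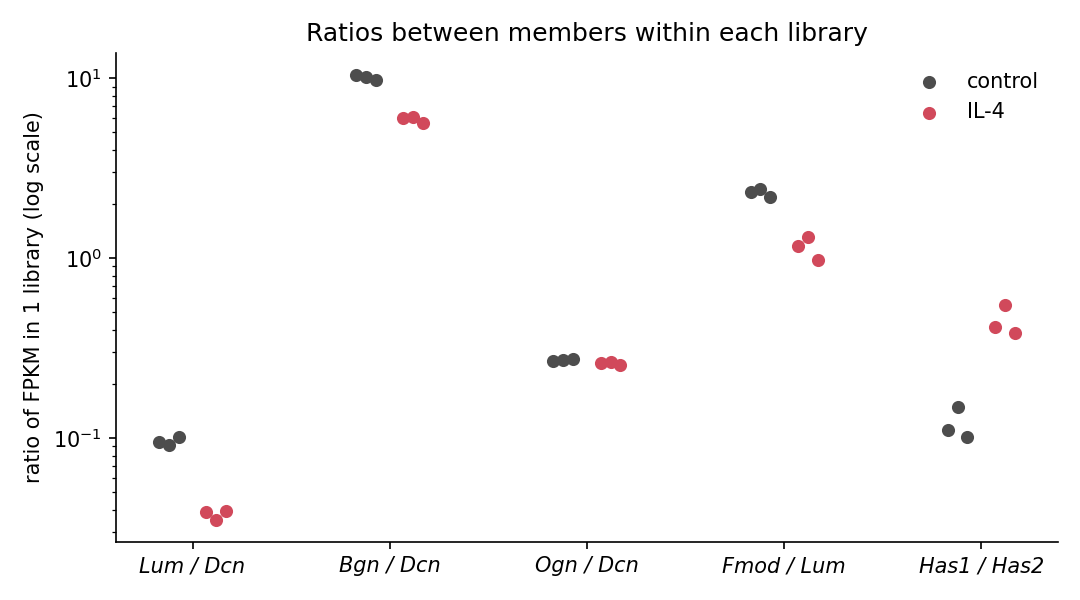
Ratio of the FPKM of pairs of members within each library (log axis), 3 control and 3 IL-4 libraries, each point a library. The Lum to Dcn ratio drops 2.54-fold and the Has1 to Has2 ratio rises 3.75-fold, while Ogn to Dcn is almost level (0.272 and 0.26 as geometric means).

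Some of these genes lie beside others of their family, and some neighbours moved in opposite directions while others moved together. On chromosome 10, Dcn and Lum are 47337 bases apart with no protein-coding gene between them and are read from the same strand. Dcn rose and Lum fell. Past Lum, Kera and Epyc, which encode proteoglycans of cornea and cartilage, had too few counts to test. On chromosome 13 the order is Ecm2, Aspn, Omd and Ogn on the plus strand, with gaps of 11653, 14896 and 15402 bases. The last, Ogn, rose, and the other three fell: Aspn (asporin, which binds TGF-β) with a log2 fold change of -1.22 (SE 0.06, adjusted p = 3.23e-06), Ecm2 with -0.73 (SE 0.13, adjusted p = 0.0025) and Omd (osteomodulin) with -0.50 (SE 0.14, adjusted p = 0.022, all by edgeR). The call for Omd was lost when any library but IL-4 replicate 6 was left out (adjusted p from 0.0536 without control replicate 3 to 0.082 without IL-4 replicate 5). Omd and Ecm2 were low, at between 70 and 112 and between 59 and 113 normalized counts, whereas Aspn had 5643, 5703 and 6270 in control and 2461, 2525 and 2563 with IL-4. On chromosome 1, Fmod fell while Prelp, a collagen-binding relative 107151 bases away on the other strand, rose with a log2 fold change of 0.81 (SE 0.07, adjusted p = 7.82e-05 by edgeR). Optc, 615 bases from Prelp on the same strand, was low, at 17 to 51 normalized counts. It did not pass (log2 fold change 0.47, SE 0.37, adjusted p = 0.365 by edgeR).

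**Figure D4:**
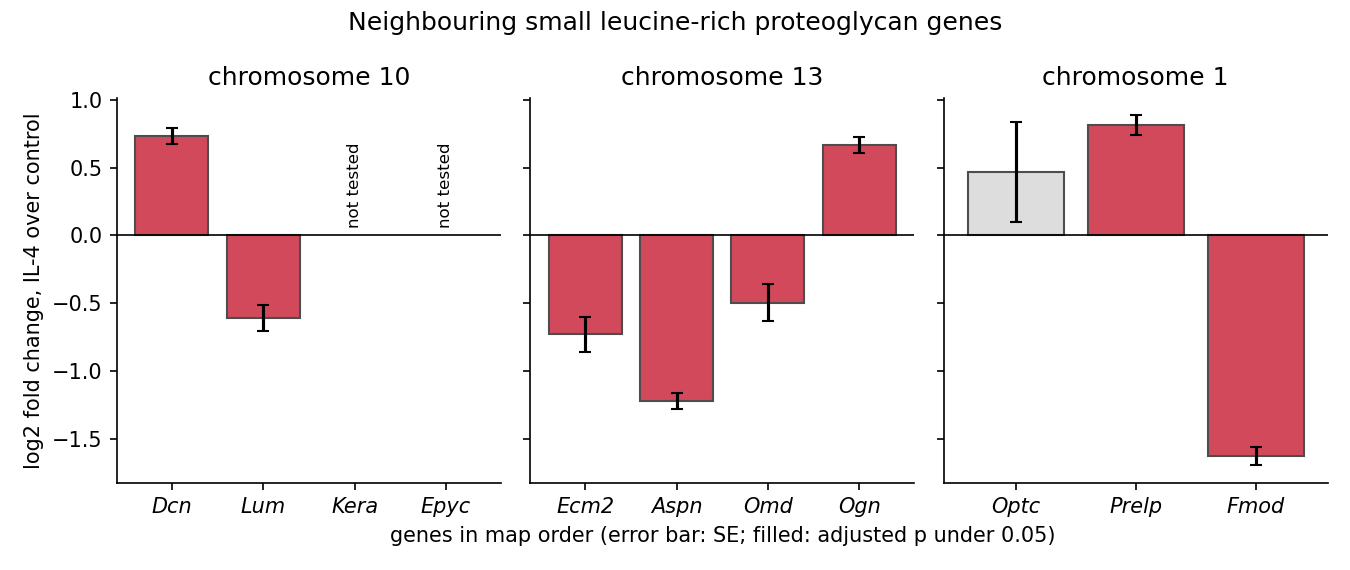
Log2 fold change (IL-4 over control, error bar SE) of neighbouring small leucine-rich proteoglycan genes in map order on 3 chromosomes; filled bars passed the test and Kera and Epyc were not tested. Dcn (0.73) and Lum (-0.61), Ogn (0.67) and its 3 neighbours, and Prelp (0.81) and Fmod (-1.63) point in opposite directions. Optc (0.47), next to Prelp, did not pass.

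Over the fixed list of other small leucine-rich proteoglycans, 9 of 13 genes could be tested, of which 4 fell and 2 rose, with a median log2 fold change of -0.14 beside 0.00 for all genes tested. Besides those above, Podn (podocan) fell from 5384, 5449 and 5274 normalized counts to 3819, 3683 and 3428 (log2 fold change -0.56, SE 0.06, adjusted p = 0.000193). Tsku (tsukushi) was higher by only 0.24 on the log2 scale (SE 0.06, adjusted p = 0.0179 by edgeR). The call for Tsku was lost under 8 of 13 other settings, among them scaling by library totals (log2 fold change 0.06) and leaving out control replicate 2 (adjusted p = 0.0798), control replicate 3 (0.0675), IL-4 replicate 4 (0.0557) or IL-4 replicate 5 (0.0542).

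Versican (Vcan, Entrez Gene 13003, chromosome 13, 89655309 to 89743027) is the large hyaluronan-binding proteoglycan of loose connective tissue. Normalized counts were 11596, 12709 and 9840 in control and 12180, 10993 and 7155 with IL-4. The groups overlapped, and IL-4 replicate 6 was far below the other IL-4 libraries. The gene did not pass the test (log2 fold change -0.17, SE 0.19, adjusted p = 0.517 by edgeR), and without IL-4 replicate 6 the value turned to 0.031 (SE 0.09, adjusted p = 0.821). Vcan has 5 RefSeq transcripts of 3745 to 12432 bases, most of which differ by alternative splicing of the exons for glycosaminoglycan attachment. The mean transcript length estimated by RSEM was between 9416 and 9718 bases in the control libraries, 9636 and 9563 in IL-4 replicates 4 and 5, and 7919 in IL-4 replicate 6, the same library in which long genes were low across the table. Only IL-4 replicate 6 lay outside the control range. Any difference in splice form between the groups therefore rests on that library and was not tested.

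Aggrecan (Acan), the cartilage counterpart of versican, had 0 counts in all 6 libraries, which allows up to 3 counts in each, or at most 0.105 CPM. Limits of this kind cover counting error only. Among other hyaluronan-binding proteoglycans and link proteins, Bcan, Ncan, Hapln1 and Hapln3 were too low to test and Hapln2 was not listed. The exception was Hapln4, a link protein known from perineuronal nets, which rose from 134, 125 and 139 normalized counts to 378, 326 and 327 (log2 fold change 1.37, SE 0.10, adjusted p = 2.49e-05 by edgeR). Of the 8 chondrocyte and tendon markers, summing to between 11.7 and 13 FPKM in controls and between 9.6 and 10.8 with IL-4, the cartilage collagens Col2a1 and Col9a1 were at or near 0 and Cnmd was not listed. Of the 5 tested, Matn3, Scx and Tnmd fell, Sox9 rose (log2 fold change 0.73, SE 0.06, adjusted p = 6.69e-05 by edgeR) and Mkx did not pass.

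Hyaluronan synthase 2 (Has2, Entrez Gene 15117, chromosome 15, 56665627 to 56694546) is the main synthase of fibroblasts. In normalized counts it had 525, 536 and 533 in control and 184, 173 and 177 with IL-4. The replicates of each group lay close together, and every IL-4 library was far below the controls. Has2 fell 2.99-fold (log2 fold change -1.58, SE 0.08, adjusted p = 2.23e-06 by edgeR). The antisense transcript Has2os, which overlaps it on the opposite strand, had at most 5 counts in a library.

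Hyaluronan synthase 1 (Has1, Entrez Gene 15116, chromosome 17, 17833691 to 17855589) was barely expressed. Libraries held 28.5, 38.4 and 26.3 normalized counts in control and 37.4, 45.9 and 33 with IL-4, which overlap. Has1 did not pass the test (log2 fold change 0.32, SE 0.22, adjusted p = 0.307 by edgeR). At so few counts the value was imprecise, and the size of change that could be detected was not tested. Spaca6, a sperm gene that overlaps it on the opposite strand, had 24, 34 and 22 counts in control and 25, 19 and 20 with IL-4, beside 30, 40 and 28 and then 35, 43 and 32 for Has1, so the origin of reads in the shared stretch is uncertain. Has3, the remaining synthase, was as low, at 13 to 39 normalized counts, and did not pass (log2 fold change 0.09, SE 0.44, adjusted p = 0.888).

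Of the fixed list of genes that make the precursors of hyaluronan, bind it or break it down, 16 could be tested, of which 6 rose and 3 fell, with a median log2 fold change of 0.06. With library totals 6 were higher and 6 lower, and with limma on log2(FPKM + 1) 6 and 5. Hyaluronan is built from UDP-glucuronate and UDP-N-acetylglucosamine. The list held 2 genes of the first route and none of the second, and both rose. Ugp2, which makes UDP-glucose, went from 3241, 3273 and 3307 normalized counts to 7137, 7445 and 7219 (log2 fold change 1.15, SE 0.05, adjusted p = 1.64e-06), and Ugdh, which oxidises it to UDP-glucuronate, from 4368, 4487 and 4575 to 5726, 5753 and 5654 (log2 fold change 0.35, SE 0.05, adjusted p = 0.00106, both by edgeR). Neither is specific to hyaluronan, since UDP-glucose also feeds glycogen and other glycans. Has2 fell in the same libraries in which these 2 genes rose.

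Among the genes for binding and turnover, Tnfaip6 (TSG-6), which transfers heavy chains onto hyaluronan, rose from 62, 84 and 79 normalized counts to 745, 678 and 887 (log2 fold change 3.36, SE 0.15, adjusted p = 1.51e-06). Cemip, which is needed to depolymerise hyaluronan outside the cell, fell from 14184, 15593 and 11952 to 2889, 2730 and 1627 (log2 fold change -2.53, SE 0.21, adjusted p = 5.1e-05). Stab1, a scavenger receptor best known from macrophages and sinusoidal endothelium, fell from 14814, 16474 and 16072 to 5075, 4683 and 3961 (log2 fold change -1.79, SE 0.10, adjusted p = 4.99e-06, all by edgeR). As given above, 12 of 14 macrophage markers fell in the same libraries, while Mrc1 rose. Whether the fall of Stab1 is linked to these cells was not tested. Layn, Itih5 and Stab2 also rose and Itih2 fell, Stab2 and Itih2 at under 60 normalized counts in every library. The receptor Cd44, abundant at 6141 to 6762 normalized counts, did not pass (log2 fold change -0.07, SE 0.05, adjusted p = 0.371), nor did Hmmr, Hyal1, Hyal2, Lyve1 and Tmem2, the older symbol of Cemip2.

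**Figure D5:**
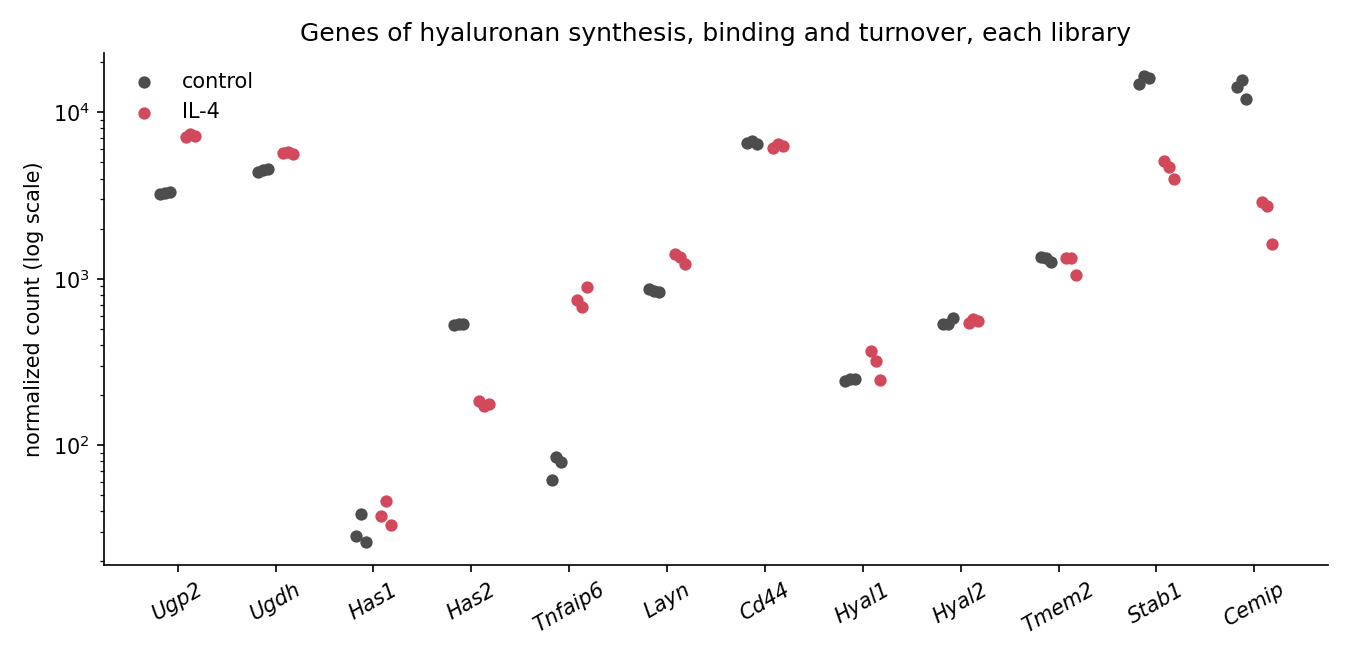
Normalized counts (log axis) of 12 genes of hyaluronan synthesis, binding and turnover in each of 3 control and 3 IL-4 libraries; points are libraries. Ugp2, Ugdh, Tnfaip6 and Layn are higher with IL-4, Has2, Stab1 and Cemip are lower, and Cd44, Hyal1, Hyal2, Tmem2 and Has1 did not pass the test.

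Lubricin (Prg4, Entrez Gene 96875, chromosome 1, 150449412 to 150466221) is a mucin-like proteoglycan known from joint surfaces. Its normalized counts were 143, 102 and 143 in control and 263, 202 and 231 with IL-4. The groups did not overlap, and the rise was 1.80-fold (log2 fold change 0.85, SE 0.16, adjusted p = 0.00412 by edgeR). On the log2(FPKM + 1) scale, which shrinks low genes, it was 0.36 (adjusted p = 0.0251 by limma). The end of Prg4 overlaps the end of Tpr on the opposite strand, a gene with 5312 to 7634 expected counts, and the expected counts of both were not whole numbers, as RSEM gives where it divides reads between transcripts. Tpr itself did not pass (log2 fold change -0.10, SE 0.10, adjusted p = 0.479). The estimated mean transcript length of Prg4, over RefSeq forms of 4278 and 1884 bases, was between 3596 and 3821 bases in control and between 3893 and 3985 with IL-4, without overlap, so a difference in splice form and one in level were estimated from the same few reads.

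The enzymes that build the chondroitin and dermatan sulfate chains of Dcn, Bgn and Vcan changed in part. All 22 genes of the list were tested, of which 7 rose and 3 fell, with a median log2 fold change of 0.13. The balance turned with scaling, since 5 were higher and 7 lower both with library totals and with limma on log2(FPKM + 1). Ust, a uronyl 2-sulfotransferase, rose from 423, 395 and 402 normalized counts to 1174, 1196 and 1023 (log2 fold change 1.47, SE 0.08, adjusted p = 5.15e-06). Dse, an epimerase that turns chondroitin into dermatan sulfate, and Chst14, a dermatan 4-O-sulfotransferase, rose by 0.50 (adjusted p = 0.00165) and 0.25 (adjusted p = 0.0256) on the log2 scale. The call for Chst14 was lost under 8 of 13 other settings, among them library totals (adjusted p = 0.439) and leaving out control replicate 1 (0.104), control replicate 2 (0.102) or IL-4 replicate 5 (0.0501, all by edgeR). Chsy3 and Chst15 rose by 0.81 (adjusted p = 9.27e-05) and 0.76 (adjusted p = 0.00344). Csgalnact1, which starts chondroitin chains, fell from 6103, 6223 and 5705 to 2305, 2342 and 2186 (log2 fold change -1.40, SE 0.06, adjusted p = 1.42e-06), while its paralogue Csgalnact2 rose by 0.54 (adjusted p = 0.000265, all by edgeR). Xylt2, which links the first sugar to the core protein, and Chst3 also fell. Of the keratan sulfate enzymes that serve Fmod and Lum, 6 were tested, of which B4galt1 and B3gnt7 rose (log2 fold changes 0.47 and 0.64, adjusted p = 0.000634 and 0.00508 by edgeR). Chst1, Chst2, B3gnt2 and B4galt4 did not pass, though with library totals 3 genes of this list were lower.

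Among 6 proteases tested that cleave versican and aggrecan, 2 rose and 3 fell. Adamts5 had 10619, 11980 and 9534 normalized counts in control and 21848, 20896 and 17698 with IL-4 (log2 fold change 0.91, SE 0.11, adjusted p = 0.00034), and Adamts15 rose by 0.95 on the log2 scale (adjusted p = 0.000238). Adamts9 fell by 0.63 (adjusted p = 0.00954) and Adamts4 by 0.43 (adjusted p = 0.0336), the latter call being lost without control replicate 1 (adjusted p = 0.0795), control replicate 2 (0.119) or IL-4 replicate 5 (0.082, all by edgeR).

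Heparan sulfate and other cell surface or basement membrane proteoglycans were taken for comparison. The list is not limited to carriers of heparan sulfate, so it is not a branch apart from the members. Of 20 tested, 5 rose and 8 fell, with a median log2 fold change of -0.15. With library totals and with limma on log2(FPKM + 1), 3 were higher and 11 lower, and Sdc1 and Sdc4 no longer passed (adjusted p = 0.117 and 0.187 with library totals by edgeR). Srgn (serglycin), a proteoglycan of the granules of blood cells and macrophages, rose from 735, 734 and 942 normalized counts to 5881, 6235 and 8228 (log2 fold change 3.08, SE 0.16, adjusted p = 3.36e-06), in libraries in which most macrophage markers fell. Gpc6 rose by 1.14 (adjusted p = 0.00034), and Cspg4 and Col18a1 fell by 1.34 (adjusted p = 0.00103) and 1.01 (adjusted p = 9.49e-05, all by edgeR). Of 18 heparan sulfate enzymes tested, 6 rose and 6 fell. Hs3st1 gave the largest change of the listed genes that the rule named, from 116, 115 and 125 normalized counts to 2419, 2321 and 2654 (log2 fold change 4.38, SE 0.09, adjusted p = 6.76e-08), while Hs6st1 and Hs6st2 fell by 1.47 (adjusted p = 2.07e-06) and 1.16 (adjusted p = 0.000133) on the log2 scale by edgeR.

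Across all 8 lists, 98 genes were tested, of which 31 rose and 27 fell, with a median log2 fold change of 0.03. These are 31.6% and 27.6%, beside 19.0% and 18.4% of all genes, for lists chosen with earlier results known. The split depended on scaling: with library totals 26 rose and 42 fell, and the median of all genes was at -0.17. It also moved with the libraries used, as 38 rose and 28 fell without IL-4 replicate 6. Leaving out any other library gave 29 to 31 that rose and 23 to 25 that fell.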

How the data were processed

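Per the labels and the study's methods, poly-A RNA libraries were sequenced on the BGISEQ-500, filtered with SOAPnuke and quantified with Bowtie2 and RSEM; HISAT, StringTie and mm10 also stand in the submitters' processing notes. The authors deposited the expected count from RSEM, an estimated count of fragments per gene, and FPKM, which divides it by transcript length and mapped total. Expected counts were rounded, 1 row naming no gene (at most 0.00022% of counts) was dropped, and a missing row was taken as 0. The main test was edgeR 4.0.16 (quasi-likelihood, TMM, filterByExpr with minimum count 10 and total 15). It was adjusted over 14009 genes by Benjamini-Hochberg (threshold 0.05, and log2 fold change beyond 1 for 2-fold). The fit was tried on simulated counts with the same dispersion for every gene, balanced changes and no outlying library. That setting is simpler than these data. The SE given with edgeR values is the absolute log2 fold change divided by the square root of the quasi-likelihood F statistic. Normalized counts are scaled to the mean TMM library size. Alternatives were DESeq2 1.42.0, other scalings, no filter, limma 3.58.1 on log2(FPKM + 1) or log2(FPKM + 0.1), and each library left out. The members and lists were chosen with earlier results of these data known. From each list the rule named up to 4 called genes with the largest change, at least 100 mean normalized counts and no overlap between groups; other listed genes were named after their values were seen. Positions are from RefSeq on GRCm38.p6, the assembly of mm10. Strand-specific counting is not given in the sources used here. P-values measure only the spread between these libraries, which may be partly technical. Small RNA libraries and protein sequences were not used here.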

Additional observations from a re-analysis of the deposited data

How the results depend on the processing

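The counts of members that rose, fell or passed 2-fold moved by at most 1 over 13 alternatives, the one addition being Bgn under library totals. Vcan, which did not pass, ran with 1 library left out from -0.32 without IL-4 replicate 4 to 0.031 without IL-4 replicate 6, where its sign changed, and was lowest over all settings with library totals (-0.35). Long genes were low across that library, and the cause was not tested. Of the other listed genes, 27 fell, but 42 did so with library totals and 41 with limma on log2(FPKM + 0.1), scalings under which the median gene was at -0.17. Over the listed genes that passed, 710 of the alternative values kept their call, 44 no longer passed and none changed sign. All 5 within-library ratios kept their direction with expected counts, with a pseudocount of 0.1 and without each library. No paired analysis was possible because the control and IL-4 mRNA libraries share no replicate number. Acan and the lowest genes are limited by depth, and 3 libraries per group limit any single value.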
